A study of Mus musculus with 4 samples.

Results

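The cartilage and joint matrix genes described here encode proteins other than collagens that build or lubricate cartilage and its neighbours. They are Acan, Hapln1, Matn1, Matn3, Matn4, Comp, Chad, Cilp, Cilp2 and Prg4, chosen by symbol, and they were 10 of 32285 genes in the count matrices. All 10 were found by their symbols in both libraries, and their levels were followed across kinds of cells and between a young and an old mouse. The study profiled cells of femur and tibia by CITE-seq, which reads an oligonucleotide-tagged antibody, here against the surface protein CD24, beside the mRNA of each cell. There was 1 mouse aged 6 months and 1 mouse aged 24 months. Both carried the INK-ATTAC transgene, in which a fragment of the p16 promoter drives an inducible caspase 8, both were untreated, and the labels used here do not give their sex. Bones were cleaned of soft tissue and cut at both ends, marrow and crushed bone were digested, cells with blood lineage markers were depleted, and live CD45- cells were sorted, so cell shares describe this suspension and not the joint. With 1 mouse of each age, a difference between ages cannot be told apart from a difference between animals or libraries.

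Cartilage resists load because aggrecan, a proteoglycan laden with chondroitin sulfate, binds along hyaluronan and draws in water. Link protein fixes aggrecan to hyaluronan, and matrilins, COMP and chondroadherin connect the proteoglycan and collagen networks with each other and with cells. The cartilage intermediate layer proteins lie between cells in the deeper matrix, and lubricin, the product of Prg4, coats the joint surface. Several of these proteins are also made in tendon and in the lining of the joint.

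The stretches just before the gene starts are shown for Acan, Hapln1, Matn3 and Chad, the members with the largest differences between cartilage and other skeletal cells. Each is the 100 bases before the start of transcription in RefSeq's annotation of GRCm38.p6, read 5′ to 3′ on the strand of the gene, which is the plus strand for these members. Capitals mark TATAAA, a word that many promoters share just before the start, and GGGCGG, known as the GC box, which is printed as its reverse complement where it lies on the other strand. The windows are chr7:79053126-79053225 for Acan, chr13:89540536-89540635 for Hapln1, chr12:8947829-8947928 for Matn3 and chr11:94564947-94565046 for Chad.
Acan: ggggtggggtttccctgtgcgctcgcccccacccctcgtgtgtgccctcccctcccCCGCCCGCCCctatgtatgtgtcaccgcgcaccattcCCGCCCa
Hapln1: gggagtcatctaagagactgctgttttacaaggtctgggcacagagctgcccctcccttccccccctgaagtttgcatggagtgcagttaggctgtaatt
Matn3: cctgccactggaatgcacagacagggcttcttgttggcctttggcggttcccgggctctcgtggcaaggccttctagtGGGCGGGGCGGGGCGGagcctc
Chad: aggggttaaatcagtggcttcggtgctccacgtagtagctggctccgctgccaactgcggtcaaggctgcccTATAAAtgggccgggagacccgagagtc
Acan had no TATAAA and carried GGGCGG on the other strand with its leftmost base at -44, -40 and -7 from the start, the first pair overlapping. Matn3 carried 3 overlapping copies on its own strand at -22, -17 and -12, Chad carried TATAAA at -28, and Hapln1 held neither word.

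The table of promoters, 250 bases before to 50 after each start, matched 8 of the 10 members, with 9 promoters because Matn4 had 2. GGGCGG was present on either strand in 6 of these 9 and in 35.7% of all 32851 promoters. TATAAA was present in 1 of 9, that of Chad, against 13.6% of all. The words ACAAAG and ACAATG, both cores of sites that SOX factors can bind, were present in 0 of 9, against 18.7% and 12.6% of all. A match of letters describes the sequence only, and a missing word says nothing of the factor.

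Cells were placed into groups by lists of 8 marker genes each, none of them a cartilage and joint matrix member, and a cell needed at least 3 markers of its group. The young library held 10063 kept cells and 81076421 UMIs (unique molecular identifiers, 1 for each captured molecule), the old library 5607 cells and 66702846 UMIs, and 19 barcodes occurred in both. The cartilage group held 174 and 46 cells in the young and old mouse (1.73% and 0.820% of kept cells), the joint lining group 161 and 85, the tendon group 627 and 290 and the osteoblast group 614 and 372. The other groups were marrow stroma, fibroblast, mural cells and blood. Of the 8 markers, 8 and 7 were highest in the cartilage group itself, 7 and 6 in joint lining, 7 and 7 in tendon, and 6 and 7 in osteoblast. The joint lining marker Crtac1 was at 0 UMIs in the joint lining group of both mice. The labels call the samples mesenchymal cells, yet blood markers placed 960 and 813 kept cells (9.54% and 14.5%) in the blood group. Summed endothelial, muscle and leukocyte lists were at most 0.0399 per 10000 in cartilage cells and at most 0.195 in joint lining. The cartilage markers summed to 242 and 156 UMIs per 10000 UMIs of all genes in the cartilage group, against 7.08 and 6.00 in joint lining, 2.13 and 1.25 in tendon and 7.65 and 17.4 in osteoblasts. Osteoblast markers summed to 105 and 141 in the cartilage group and to 269 and 428 in osteoblasts, and their part in the results for cartilage cells was not tested.

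Levels are given as UMIs per 10000 UMIs of the summed cells of a group, first in the young animal and then in the old, with exact 95% intervals that cover counting error only. They are compared between groups within a gene. The blood group, which should not make these proteins, serves as background. Its cells had median depths of 6668 and 6905 UMIs, against 8244 and 15172 in cartilage, so shares of cells with a UMI favour the deeper cells.

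**Figure D1:**
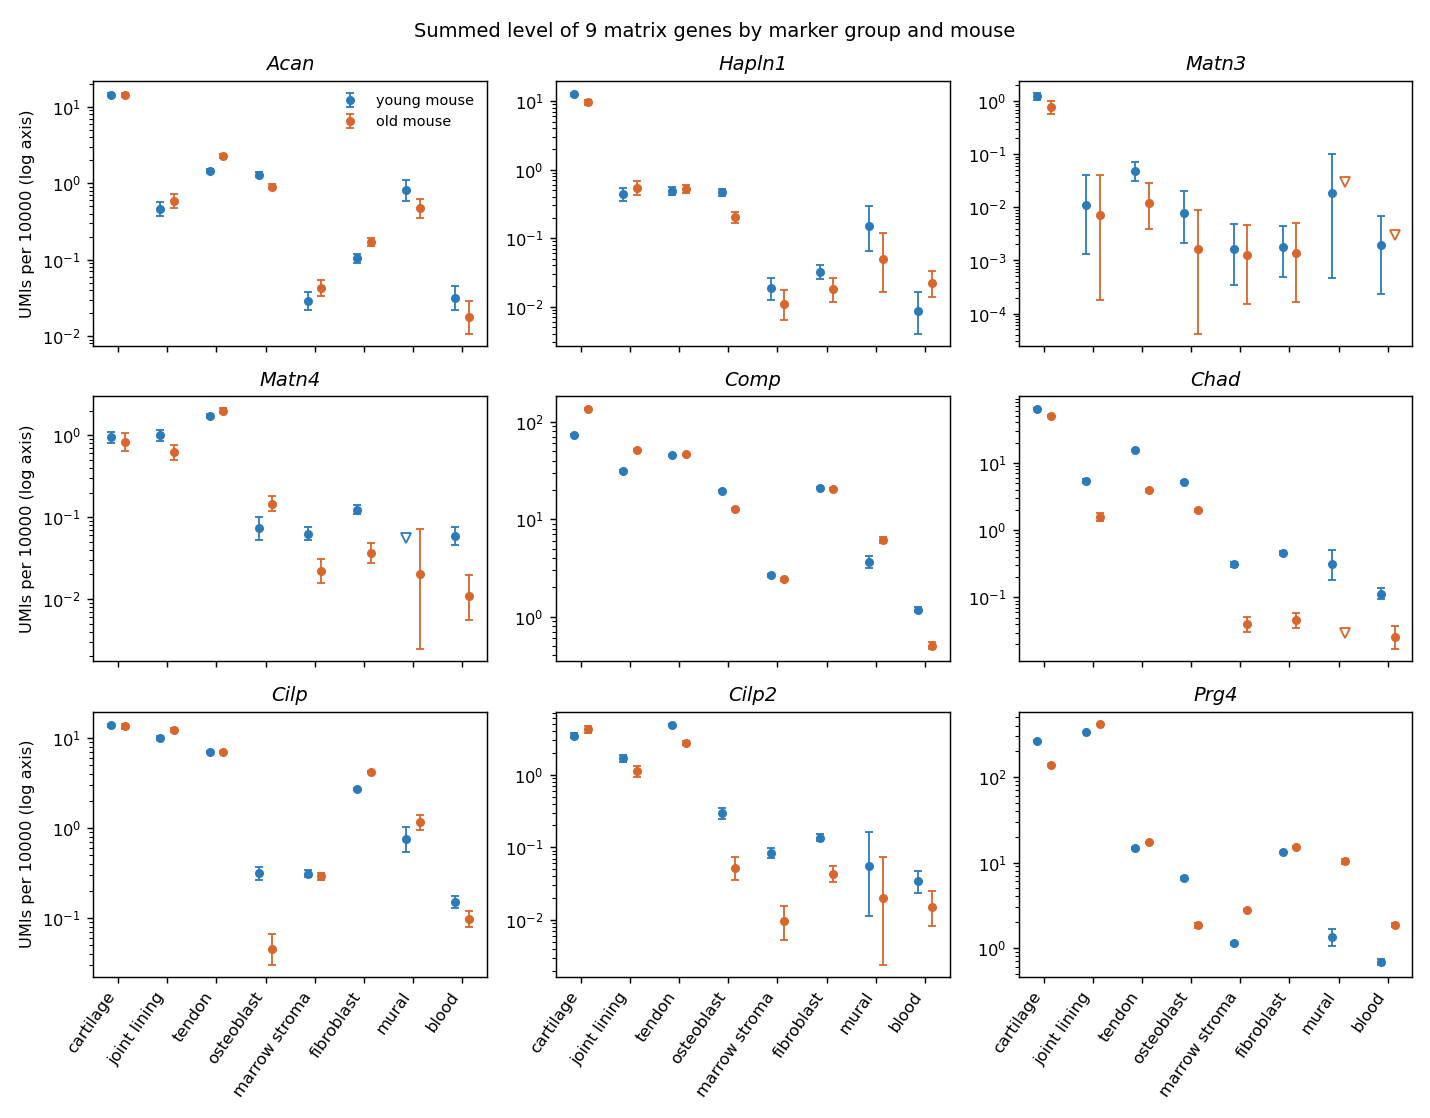
Level of 9 members, all but the nearly undetected Matn1 (UMIs per 10000, log axis) in each marker group of either mouse, with exact 95% Poisson intervals. Triangles stand for a count of 0 and sit at the level that 3 counts would give. Acan, Hapln1, Matn3, Comp, Chad and Cilp were highest in cartilage cells in both mice, Matn4 in tendon and Prg4 in the joint lining.

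Acan (ENSMUSG00000030607), the aggrecan core protein, was highest in cartilage cells. Its level there was 14.4 and 14.2 (13.8 to 15.0 and 13.4 to 15.1), and 94.3% and 93.5% of the cells held at least 1 UMI. Tendon came next with 1.45 and 2.26, followed by osteoblasts with 1.30 and 0.906, the mural group with 0.815 and 0.471 and joint lining with 0.462 and 0.590. Only 8 and 11 mural cells and 26 and 16 joint lining cells held an Acan UMI, so the order of these groups rests on few cells. Cartilage stood 9.95 and 6.31 times above tendon. Neighbours whose intervals overlapped were tendon and osteoblast in the young mouse, and joint lining and mural in the old. Marrow stroma and fibroblasts were low, at 0.0290 and 0.0427 and at 0.104 and 0.171, and blood was at 0.0319 and 0.0180, with UMIs in 1.88% and 1.72% of its cells. Although so much higher per cell there, the small cartilage group held only 43.3% and 25.8% of all Acan UMIs.

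Hapln1 (ENSMUSG00000021613), the link protein of aggrecan and hyaluronan, followed a steeper order. Cartilage cells held 12.6 and 9.57 (12.0 to 13.1 and 8.88 to 10.3), with UMIs in 87.4% and 84.8% of cells. Tendon (0.493 and 0.529), joint lining (0.435 and 0.547) and osteoblasts (0.464 and 0.203) lay far below. In the young mouse the intervals of tendon, osteoblast and joint lining overlapped from neighbour to neighbour, while in the old mouse only those of joint lining and tendon did. Cartilage stood 25.5 and 17.5 times above the next group and held 61.8% and 47.6% of all Hapln1 UMIs. Blood was at 0.00871 and 0.0219.

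The matrilins are adaptor proteins with von Willebrand factor A domains, and the measured members differed widely. Matn1 (ENSMUSG00000040533), a matrilin of hyaline cartilage, was barely detected: cartilage cells held 3 and 3 UMIs, in 3 and 2 cells, and young blood cells held 2. Every other group had 0, which at 3 counts allows up to 0.0167 and 0.0216 per 10000 in joint lining and 0.00603 and 0.00735 in tendon, so Matn1 could not be ranked at this depth. Matn3 (ENSMUSG00000020583), a matrilin of growth cartilage, had 202 and 58 UMIs in the cartilage group, a level of 1.24 and 0.772 (1.08 to 1.43 and 0.586 to 0.998). These came from only 26 and 5 cells, with up to 43 and 45 UMIs in a single cell. Tendon had 24 and 5 UMIs of Matn3, osteoblasts 4 and 1 and joint lining 2 and 1. Against joint lining the ratio was 112 (30.5 to 928) in the young animal and 107 (18.5 to 4306) in the old, and cartilage held 70.9% and 75.3% of all Matn3 UMIs.

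Matn4 (ENSMUSG00000016995), the broadly expressed matrilin, was highest in tendon instead. Tendon held 1.72 and 1.99 (1.61 to 1.84 and 1.86 to 2.13), joint lining 0.997 and 0.619 and cartilage 0.942 and 0.838. Joint lining and cartilage could not be ordered, since their intervals overlapped in both mice. Osteoblasts (0.0737 and 0.146) lay near the young blood level, blood being at 0.0590 and 0.0110.

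Comp (ENSMUSG00000031849), a thrombospondin that ties collagen fibrils together in cartilage and tendon, was found well beyond cartilage. Its level was 74.0 and 135 in cartilage (72.6 to 75.3 and 132 to 138), 45.5 and 46.3 in tendon and 31.2 and 51.2 in joint lining. Fibroblasts held 21.0 and 20.5 and osteoblasts 19.7 and 12.8. No neighbouring groups had overlapping intervals in either mouse, but tendon and joint lining changed places between the mice. UMIs of Comp were found in 94.3% and 91.3% of cartilage cells, in 95.9% and 96.2% of tendon cells and in 19.0% and 22.5% of blood cells, where the level was 1.17 and 0.505. By total UMIs, fibroblasts held the largest share, 34.2% and 28.2%.

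Chad (ENSMUSG00000039084), chondroadherin, is a leucine-rich repeat protein that binds collagen and cells. It reached 63.2 and 50.3 in cartilage (62.0 to 64.5 and 48.8 to 52.0), 15.4 and 3.89 in tendon, 5.37 and 1.58 in joint lining and 5.15 and 1.97 in osteoblasts. Cartilage was thus 4.11 and 13.0 times above tendon, and the intervals of joint lining and osteoblast overlapped in the young mouse. In the old mouse the 10 highest of the 46 cells held 85.7% of the Chad UMIs of cartilage. Blood was at 0.114 and 0.0259.

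Cilp (ENSMUSG00000042254), cartilage intermediate layer protein, was nearly as high in joint lining as in cartilage. The levels were 13.9 and 13.7 in cartilage, 10.1 and 12.4 in joint lining, 7.03 and 7.03 in tendon and 2.69 and 4.25 in fibroblasts. In the old mouse cartilage (12.8 to 14.5) and joint lining (11.8 to 13.0) overlapped. Osteoblasts held only 0.315 and 0.0455, and blood 0.152 and 0.0978. Cilp2 (ENSMUSG00000044006), its relative, was led by tendon in the young mouse (4.83 against 3.44 in cartilage) and by cartilage in the old (4.22 against 2.71 in tendon). Joint lining held 1.68 and 1.11, osteoblasts 0.293 and 0.0520 and blood 0.0339 and 0.0150.

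Prg4 (ENSMUSG00000006014), lubricin, was highest in the joint lining group. Its level was 337 and 419 there (334 to 339.9 and 416 to 422), with UMIs in 153 and 81 of the 161 and 85 cells. Cartilage cells held 267 and 139 (265 to 270.0 and 136 to 142), unevenly: the 10 highest cells, out of 174 and 46, held 48.9% and 80.3% of the Prg4 UMIs, and UMIs were found in 55.7% and 78.3%. Tendon (14.8 and 17.2) and fibroblasts (13.1 and 15.2) followed. Blood cells still held 0.686 and 1.85, with UMIs in 13.5% and 17.3% of them, and marrow stroma stood little above that background, at 1.13 and 2.78.

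Whether the members differed between groups was tested on 14 sums, 7 skeletal groups in 2 mice, with edgeR's quasi-likelihood test and the mouse as a block. Each group was set against the mean of the other 6. In cartilage cells, 9 of 9 members tested were higher, Matn1 having too few UMIs to be tested, where 21.0% of 13731 genes were called, 12.0% higher and 8.99% lower. The median log2 change of these 9 was 4.56, against -0.02 over all genes tested. Acan was 44.2 times higher, a log2 change of 5.47 (SE 0.17, adjusted p = 1.05e-09). Hapln1 changed by 6.78 (SE 0.17, adjusted p = 2.77e-10) and Chad by 6.72 (SE 0.37, adjusted p = 1.80e-07). Matn3 was at 7.78, but it passed the filter on low counts largely through the cartilage sums, which favours a difference. Its value and call, and the count of 9 and the median that include it, are therefore a description. Stricter groups gave larger values: Acan was at 6.23 with at least 4 markers required of a cell and at 7.47 when cells were thinned to 2000 UMIs each and grouped again. For the other members tested, the log2 changes were smaller: 4.56 (SE 0.37, adjusted p = 5.21e-06) for Cilp2, 4.30 (SE 0.43, adjusted p = 2.60e-05) for Prg4, 3.39 (SE 0.30, adjusted p = 9.71e-06) for Cilp, 3.11 (SE 0.18, adjusted p = 3.06e-07) for Comp and 2.87 (SE 0.45, adjusted p = 0.000836) for Matn4. The p-values measure only how differences between groups varied across these 2 mice, after the block took out the overall difference between the mice.

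**Figure D2:**
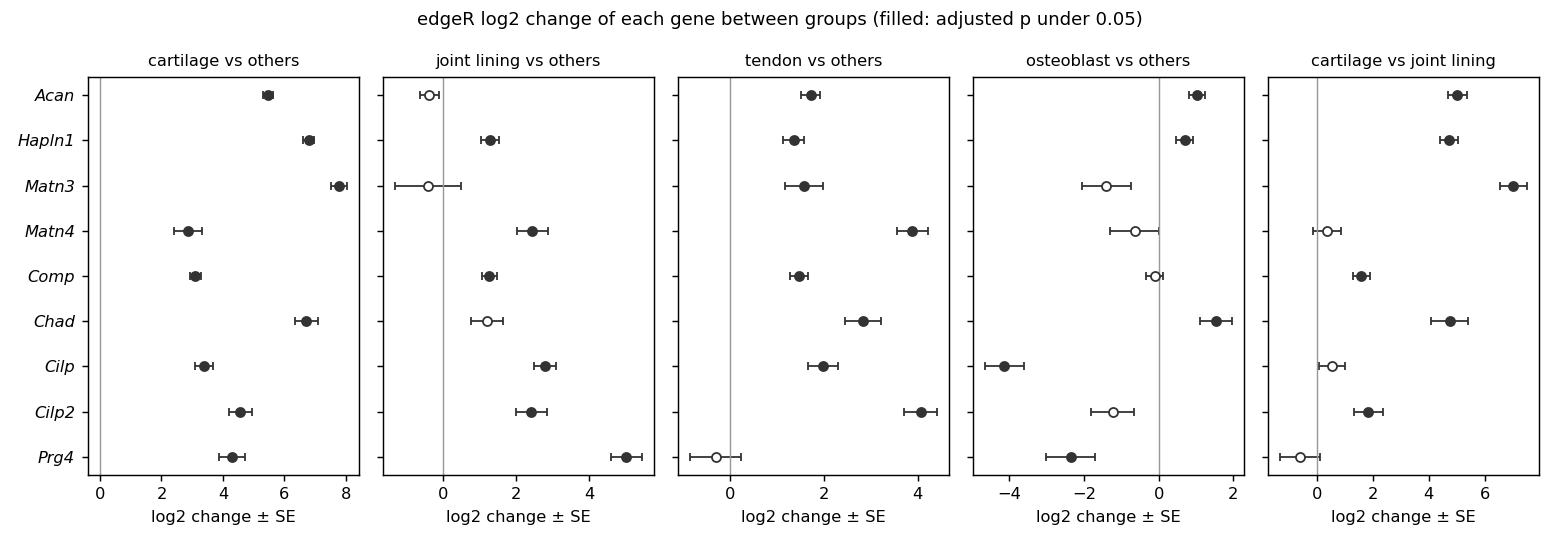
Log2 change of each tested member in cartilage, joint lining, tendon and osteoblast cells against the mean of the other skeletal groups, and in cartilage against joint lining, with bars of 1 standard error from the edgeR fit over 14 sums. Filled points had an adjusted p under 0.05. All 9 tested members lie above 0 in cartilage, and the filled points below 0 in osteoblasts are Cilp and Prg4. The filled points of Matn3 are a description, as it passed the filter on low counts largely through the cartilage sums.

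In joint lining cells, 6 of 9 tested members were higher and 0 lower, where 11.9% of genes were called, 7.92% higher and 3.94% lower. Prg4, the lubricant of this layer, led with 5.02 (SE 0.42, adjusted p = 1.35e-05). Cilp changed by 2.78 (SE 0.30, adjusted p = 0.000108), Matn4 by 2.44 (SE 0.43, adjusted p = 0.00296) and Cilp2 by 2.41 (SE 0.42, adjusted p = 0.00282), with smaller values of 1.28 (SE 0.26, adjusted p = 0.00666) for Hapln1 and 1.26 (SE 0.20, adjusted p = 0.00163) for Comp. Acan was not called at -0.39 (SE 0.26, adjusted p = 0.405), nor was Chad at 1.18 (SE 0.44, adjusted p = 0.114) or Matn3 at -0.42 (SE 0.90, adjusted p = 0.868). With at least 4 markers required of a cell, 3 calls were lost, those of Hapln1 (0.05, adjusted p = 0.972), Comp (0.60, adjusted p = 0.227) and Cilp2 (1.98, adjusted p = 0.342), and Acan was called as lower (-2.64, adjusted p = 0.00123). Hapln1 was at -0.57 on cells thinned to 2000 UMIs.

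In tendon cells, 8 of 9 were higher and 0 lower, where 12.3% of genes were called, 9.02% higher and 3.27% lower. Cilp2 (4.06, SE 0.34, adjusted p = 1.67e-05) and Matn4 (3.89, SE 0.32, adjusted p = 1.62e-05) changed most, followed by Chad (2.83, SE 0.38, adjusted p = 0.000499). Cilp changed by 1.98 (SE 0.31, adjusted p = 0.00147), Acan by 1.72 (SE 0.20, adjusted p = 0.000156), Comp by 1.47 (SE 0.20, adjusted p = 0.000479), Hapln1 by 1.36 (SE 0.22, adjusted p = 0.00172) and Matn3 by 1.58 (SE 0.40, adjusted p = 0.0234). Matn3 rested on 24 and 5 UMIs, had passed the filter largely through the cartilage sums and lost its call without the replicate block (log2 change 1.64, adjusted p = 0.0696). Prg4 was not called in tendon, with a value of -0.29 (SE 0.55, adjusted p = 0.823).

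Osteoblasts split the members. Of the 9 tested, 3 were higher and 2 lower, where 25.9% of genes were called, 14.5% higher and 11.3% lower. Chad (1.54, SE 0.42, adjusted p = 0.0179), Acan (1.03, SE 0.21, adjusted p = 0.00326) and Hapln1 (0.70, SE 0.23, adjusted p = 0.0442) were higher, and Cilp (-4.12, SE 0.51, adjusted p = 0.000133) and Prg4 (-2.35, SE 0.66, adjusted p = 0.0199) were lower. Without the replicate block, 3 members were called, and Chad (log2 change 1.35, adjusted p = 0.248) and Hapln1 (0.74, adjusted p = 0.0716) were no longer among them, and DESeq2 did not call Hapln1 (adjusted p = 0.0874). Comp was at -0.11 (SE 0.23, adjusted p = 0.803), and its direction turned in 4 alternatives, from 0.03 to 0.72.

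Set directly against joint lining, cartilage cells were higher for 6 of 9 tested members and lower for 0, where 14.1% of genes were called, 6.94% higher and 7.12% lower. The aggrecan components and chondroadherin stood well apart, with 5.02 (SE 0.34, adjusted p = 4.46e-06) for Acan, 4.72 (SE 0.32, adjusted p = 4.46e-06) for Hapln1 and 4.74 (SE 0.67, adjusted p = 0.000826) for Chad. Comp differed by 1.58 (SE 0.30, adjusted p = 0.00477) and Cilp2 by 1.84 (SE 0.53, adjusted p = 0.0399). The remaining call was that of Matn3, which passed the filter through the cartilage sums and is a description, on the UMIs given above. The call of Cilp2 was lost without the replicate block (1.69, adjusted p = 0.168). The Prg4 difference was -0.62 (SE 0.70, adjusted p = 0.629), that of Cilp 0.53 (SE 0.47, adjusted p = 0.523) and that of Matn4 0.37 (SE 0.50, adjusted p = 0.694). A missed threshold does not show that both groups hold these transcripts alike.

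For Acan, Comp and Prg4, the genes with the most similar levels over the 14 sums were named by Pearson's r of log2(CPM + 1), as a description of sums that share libraries and mice. Acan was nearest to Kcnma1 (r = 0.967), which encodes a potassium channel, Capn6 (r = 0.967), a member of the calpain family, and Wwp2 (r = 0.958), a ubiquitin ligase. Comp was nearest to Chst12 (r = 0.970), a chondroitin sulfotransferase, Trps1 (r = 0.970), a transcription factor of growth cartilage, and Nfatc1 (r = 0.956). Prg4 was nearest to Cth (r = 0.934), which encodes cystathionine gamma-lyase, Ptpre (r = 0.931), a tyrosine phosphatase, and Vwa1 (r = 0.930), a matrix protein with a von Willebrand factor A domain.

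Cartilage cells were not uniform in these transcripts. Per cell, Acan had a lowest of 0, a median of 8.51 and a highest of 90.9 in the young mouse, and 0, 9.35 and 91.3 in the old. Prg4 had a lowest of 0, a median of 1.63 and a highest of 2985 in the young mouse, and 0, 29.6 and 1139 in the old. Acan was thus present in most cells at a middling level, whereas Prg4 was close to absent in many and very high in some. Comp had medians of 50.8 and 75.4 per 10000 and Chad of 42.0 and 10.2.

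**Figure D3:**
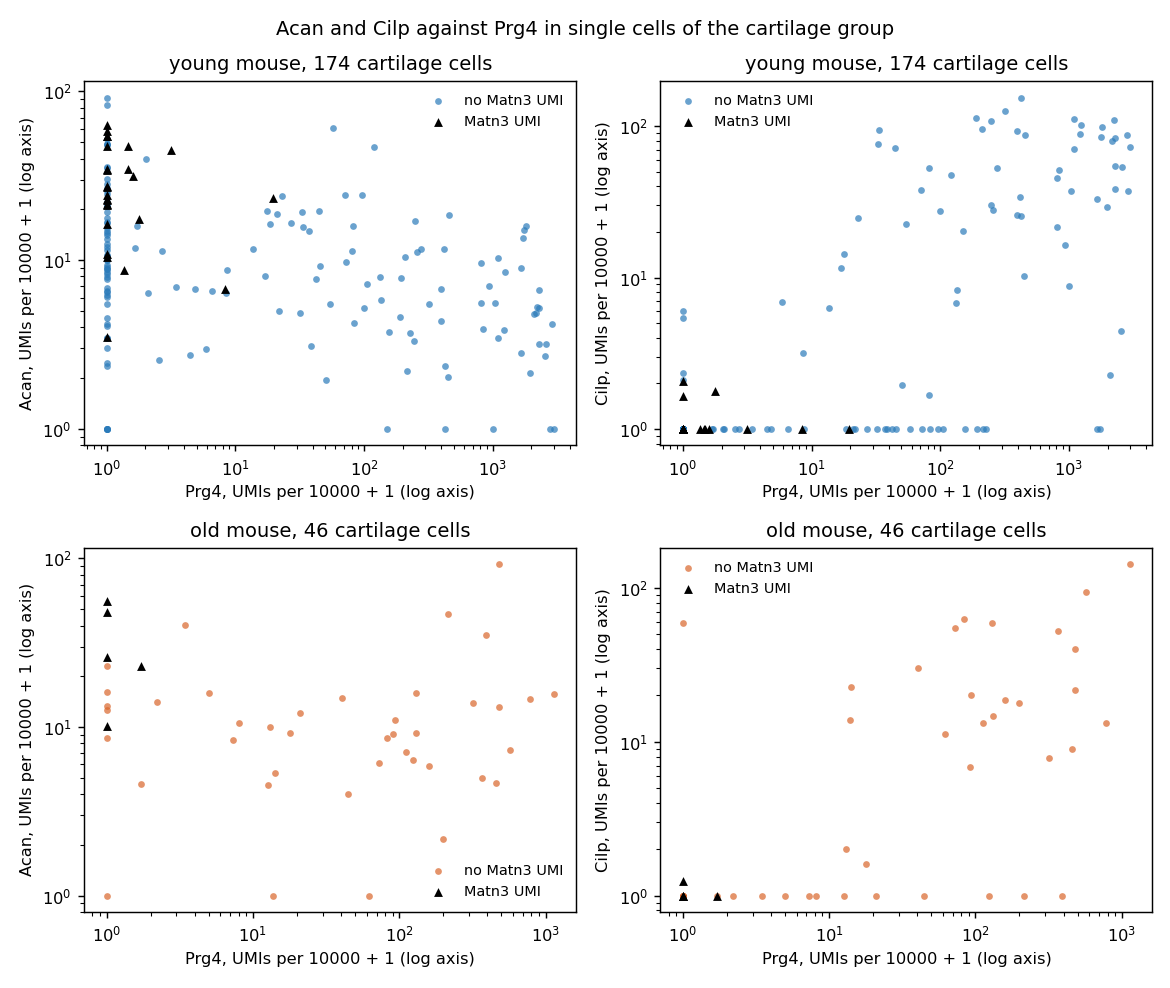
UMIs per 10000 of members in each cell of the cartilage group, 174 young and 46 old cells, with Prg4 on the horizontal axis and Acan (left) or Cilp (right) on the vertical axis, both logarithmic after 1 is added. Black triangles are cells with a Matn3 UMI. Cells high in Prg4 hold more Cilp and less Acan in the young mouse, and no cell with Matn3 UMIs lies above 100 for Prg4.

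Spearman's rho over single cells of 1 library describes which members were found together, in 174 and 46 cells that share library and depth. Acan and Hapln1 went together (rho 0.53 and 0.51), as did Acan and Matn3 (0.41 and 0.39). Cilp went with Prg4 (0.73 and 0.60) and with Cilp2 (0.57 and 0.32). Some pairs across these sets were below 0 in both mice, at -0.39 and -0.13 for Acan with Prg4, -0.30 and -0.44 for Matn3 with Prg4 and -0.35 and -0.28 for Chad with Cilp. Hapln1 was at -0.27 and -0.01 with Prg4 and at -0.25 and 0.03 with Cilp2. The pair Cilp2 and Prg4 was at 0.61 and 0.15, so it held in the young mouse more than in the old.

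The cartilage cells with over 100 UMIs of Prg4 per 10000 numbered 50 of 174 (28.7%) in the young animal and 16 of 46 (34.8%) in the old. These parts were cut by a measured value, so what follows is a description. Cilp in cells above this level was 44.2 against 3.22 in the young mouse and 28.9 against 4.61 in the old. Acan was 6.50 against 17.2 in the young mouse and 13.4 against 14.7 in the old, a wide gap in the young mouse and a narrow one in the old. Chad, the collagen-binding protein, was 48.7 against 68.4 in the young mouse and 12.6 against 72.7 in the old. Cilp2 was 7.09 against 2.15 in the young mouse and 1.50 against 5.82 in the old, higher in the lubricin-rich cells of the young mouse and lower in those of the old. All 202 and 58 Matn3 UMIs of cartilage lay in cells at or below this level and 0 above it.

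Cells with Matn3 were 26 in the young animal and 5 in the old, deeper (median 16258.5 and 20363 UMIs) than those without (7665.5 and 13655). Depth raises the chance of finding a rare transcript, and its part was not tested. In the Matn3 cells, Acan was 25.2 against 11.0 in the young mouse and 26.9 against 11.3 in the old. Hapln1 was 20.1 against 10.2 in the young mouse and 22.8 against 6.48 in the old. Both aggrecan components were thus higher beside Matn3, in both mice. Prg4 was 1.03 against 351 in the young mouse and 0.0703 against 172 in the old, and Cilp was 0.0774 against 18.3 in the young mouse and 0.0703 against 16.8 in the old, close to absent beside Matn3. The summed cartilage markers were 342 against 210.3 in the young mouse and 398 against 99.1 in the old.

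Col9a1, a chain of the fibril-associated collagen IX and also a marker used for grouping, was on in 70 young and 14 old cartilage cells and off in 104 and 32. Hapln1 in cells with Col9a1 was 16.6 against 8.72 in the young mouse and 16.5 against 5.20 in the old. Acan was 17.3 against 11.6 in the young mouse and 17.3 against 12.3 in the old. Prg4 ran the other way, at 129 against 401 in the young mouse and 60.4 against 188 in the old. Acan and Hapln1 were thus higher where Col9a1 was on, and lubricin was lower, in both mice. Cells with Col9a1 were deeper (median 9465 and 18852 UMIs) than those without (6770 and 13039.5), and the part of depth was not tested. Chad was 74.6 against 52.3 in the young mouse and 48.5 against 51.5 in the old. Matn4 was 1.23 against 0.664 in the young mouse and 0.449 against 1.08 in the old. Comp was 65.4 against 82.2 in the young mouse and 155 against 122 in the old, with opposite directions.

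**Figure D4:**
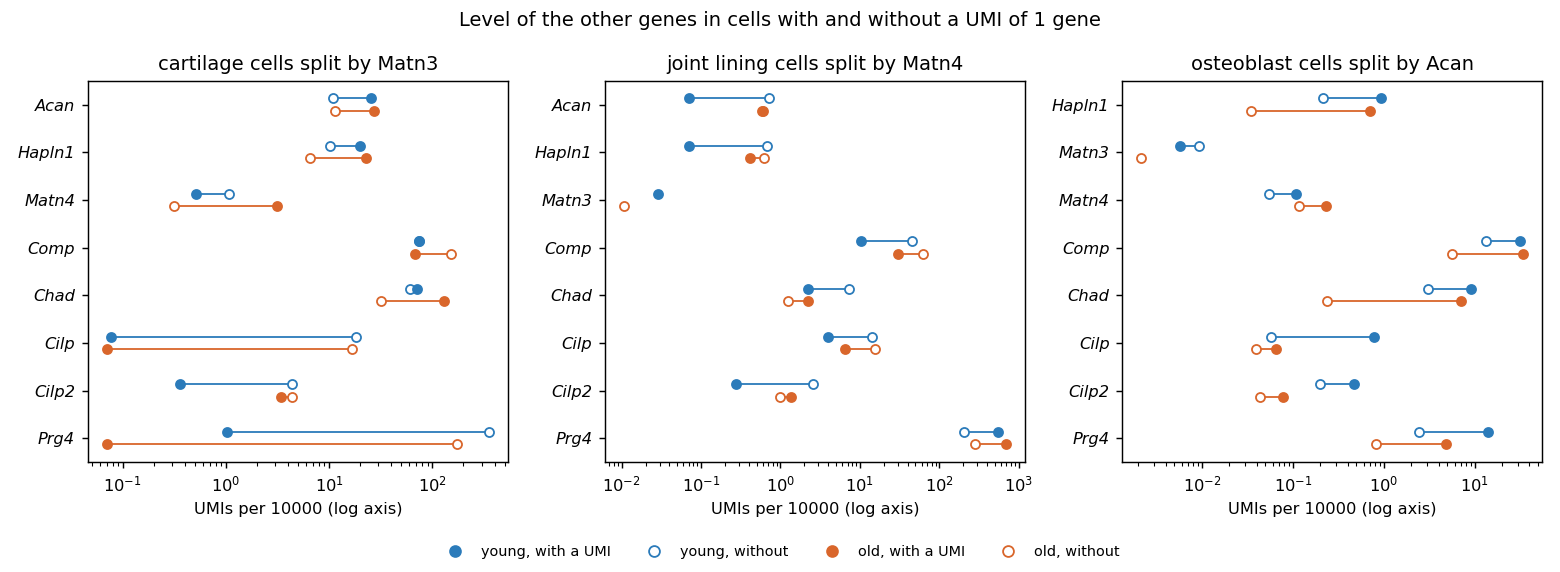
UMIs per 10000 of the other members (log axis) in cartilage cells with and without a Matn3 UMI, joint lining cells with and without a Matn4 UMI and osteoblasts with and without an Acan UMI. Filled points are cells with and open points cells without that UMI, blue for the young and orange for the old mouse, and a point is missing where the count was 0. In cartilage cells Acan and Hapln1 are higher beside Matn3 and Prg4 and Cilp are lower.

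Joint lining cells divided by Matn4. The 52 young and 23 old cells with Matn4 held Prg4 at 545 against 204 in the young mouse and 691 against 285 in the old. Comp was 10.2 against 44.7 in the young mouse and 30.4 against 61.5 in the old, and Cilp was 4.02 against 13.997 in the young mouse and 6.54 against 15.3 in the old. In other words, lubricin was higher where the matrilin was found and the other matrix proteins were lower, in both mice, and the joint lining markers were 37.8 against 16.5 in the young mouse and 29.0 against 25.2 in the old. Over single cells, rho was 0.52 and 0.41 for Matn4 with Prg4, -0.40 and -0.37 for Matn4 with Comp, 0.59 and 0.75 for Comp with Cilp and -0.25 and -0.25 for Cilp with Prg4. The sign of Cilp with Prg4 was thus the reverse of that in cartilage cells. The 26 and 16 joint lining cells with Acan held Hapln1 at 1.93 against 0.164 in the young mouse and 2.25 against 0.231 in the old and Prg4 at 78.9 against 384 in the young mouse and 173 against 465 in the old.

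Tendon cells with Chad, 420 of 627 in the young animal and 123 of 290 in the old, held Comp at 55.8 against 27.6 in the young mouse and 59.6 against 37.8 in the old. Cilp2 was 6.75 against 1.50 in the young mouse and 4.79 against 1.40 in the old. Transcripts of Chad, Comp and Cilp2 thus went together, with rho of 0.50 and 0.44 for Chad with Cilp2 and 0.49 and 0.31 for Comp with Chad, as did Acan and Hapln1 (0.37 and 0.41). Other pairs were below 0, at -0.07 and -0.20 for Acan with Chad, -0.17 and -0.23 for Acan with Cilp2, -0.27 and -0.21 for Acan with Cilp and -0.18 and -0.22 for Hapln1 with Cilp. Tendon cells with Matn4 (174 and 98) held Prg4 at 3.84 against 19.4 in the young mouse and 4.49 against 24.2 in the old, the opposite of joint lining, and Chad at 22.8 against 12.3 in the young mouse and 6.54 against 2.43 in the old.

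Osteoblasts with Acan, 187 of 614 and 103 of 372, carried more Comp, Chad, Hapln1 and Prg4. Comp was 31.3 against 13.5 in the young mouse and 34.3 against 5.64 in the old. Chad was 9.05 against 3.05 in the young mouse and 7.14 against 0.241 in the old. Hapln1 was 0.927 against 0.215 in the young mouse and 0.706 against 0.0347 in the old. Prg4, too, was 14.1 against 2.46 in the young mouse and 4.85 against 0.823 in the old. The cartilage markers ran the other way, with a sum of 5.00 against 9.08 in the young mouse and 6.48 against 21.0 in the old. Osteoblast markers were 211 against 299.8 in the young mouse and 362 against 449.8 in the old. Of the cells with Acan, 1 and 0 were called as doublets. Over single osteoblasts, rho of Acan was 0.02 and 0.11 with Cilp, 0.16 and 0.02 with Cilp2 and 0.09 and 0.165 with Matn4.

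Between ages, each level was compared as the ratio of the old to the young mouse with an exact interval for counting error, and a ratio past 2-fold with at least 20 UMIs was counted, without a test. In cartilage 0 of 9 members passed 2-fold, where 12.7% of genes with that many UMIs did. With at least 4 markers on, 1 of 9 did, Prg4 at 0.464, and on cells thinned to 2000 UMIs 2 of 9 did, Comp at 2.08 and Matn4 with 36 young and 0 old UMIs. In osteoblasts 5 of 8 did, against 7.70%, in marrow stroma 4 of 8 against 4.48%, and in fibroblasts 3 of 8 against 4.81%. Tendon had 2 of 9 (4.61% of genes), joint lining 1 of 8 (5.89%) and mural cells 1 of 4 (10.6%). Of these 16, 14 were lower in the old mouse, namely 5 in osteoblasts (5.44% of genes there were lower past 2-fold), 3 in marrow stroma (2.21%), 3 in fibroblasts (2.07%), 2 in tendon (2.76%) and 1 in joint lining (3.18%). The others were Prg4 in marrow stroma and mural cells, where 2.26% and 7.65% of genes were higher past 2-fold.

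**Figure D5:**
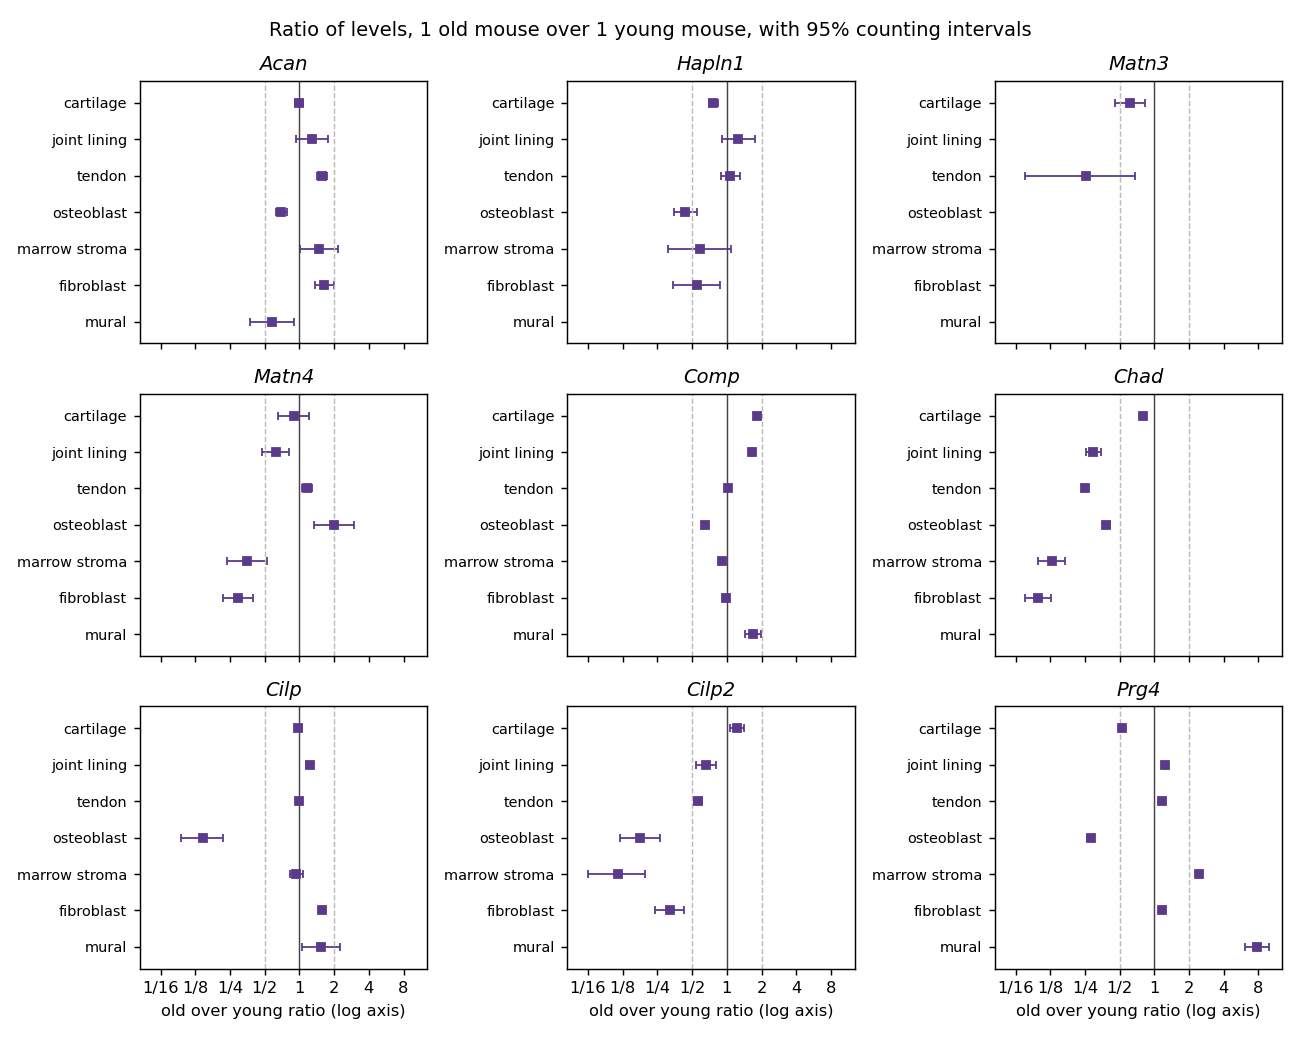
Ratio of the old to the young level of each member in each skeletal group (log axis), with exact 95% intervals for counting error, for members with at least 20 UMIs over both mice. Lines mark 2-fold. All 6 ratios of Chad lie below 1, those of Acan lie on both sides of 1, and those of Prg4 span 0.281 to 7.72. There is 1 mouse of each age.

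Chad was lower in the old mouse in 6 of 6 groups and past 2-fold in 5. The ratio was 0.253 (0.239 to 0.267) in tendon, 0.295 (0.254 to 0.342) in joint lining and 0.382 (0.357 to 0.409) in osteoblasts. Without the top 5% of cells by Chad in each mouse, an alternative chosen after seeing the data, these were 0.186, 0.135 and 0.0867. The ratio was 0.128 (0.0972 to 0.167) in marrow stroma and 0.0986 (0.0757 to 0.127) in fibroblasts, where levels were low. Cartilage cells, the main source per cell, gave 0.796 (0.767 to 0.826), and 0.508 without the top cells. Chad in blood cells, the background, moved the same way, from 0.114 to 0.0259, and its part in the low ratios of marrow stroma and fibroblasts was not tested. In joint lining the direction turned when cells were thinned to 2000 UMIs (log2 ratio 0.32).

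Cilp2 was lower in the old mouse in 5 of 6 groups. Tendon, its main source in the young mouse, gave 0.562 (0.523 to 0.604), and 0.490 without the top 5% of cells. Osteoblasts gave 0.178 (0.117 to 0.262) and marrow stroma 0.114 (0.0623 to 0.194). Cartilage was the exception with 1.23 (1.07 to 1.41), which became 0.821 without the top cells, so the ratio above 1 rested on few cells. Cilp itself had ratios near 1 in cartilage (0.981, 0.911 to 1.06) and tendon (1.00, 0.952 to 1.05), and lay above 1 in joint lining (1.23, 1.15 to 1.31) and fibroblasts (1.58, 1.52 to 1.63). In osteoblasts it was 0.145 (0.0930 to 0.217), but 1 young cell held 117 of the 158 young UMIs. In marrow stroma it went from 0.941 to 2.58 without the called doublets.

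Acan in cartilage was nearly equal between the mice, with a ratio of 0.990 (0.920 to 1.06), 0.962 without the top cells and 1.30 on thinned cells. Its ratio was 1.56 (1.41 to 1.72) in tendon, 2.29 there without the top cells, and 0.698 (0.622 to 0.783) in osteoblasts. Hapln1, its partner, was lower in old cartilage at 0.761 (0.698 to 0.829), but the thinned cells gave 1.11 (0.856 to 1.43). In osteoblasts it was 0.437 (0.349 to 0.546), and 0.225 without the top cells. Matn3 gave 0.620 (0.455 to 0.834) in cartilage, from 26 young and 5 old cells, 0.170 without the top cells and 1.22 (0.410 to 3.02) on thinned cells. Matn4 was 0.890 (0.653 to 1.20) in cartilage, 1.16 (1.05 to 1.27) in tendon and 0.621 (0.474 to 0.807) in joint lining.

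Comp was the member with higher old levels in both joint groups: 1.82 (1.78 to 1.87) in cartilage and 1.64 (1.58 to 1.70) in joint lining. Without the top 5% of cells these were 1.90 and 1.68. Tendon gave 1.02 (0.998 to 1.04), fibroblasts 0.976 (0.962 to 0.990) and osteoblasts 0.650 (0.631 to 0.669). The mural group gave 1.67 (1.42 to 1.97), and 2.38 without the top cells. The ratios of Comp thus lay on both sides of 1, and none passed 2-fold with these groups and all cells, but on cells thinned to 2000 UMIs the cartilage ratio was 2.08, and with 4 markers that of the mural group was 0.434.

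Prg4 was 0.520 (0.509 to 0.531) in cartilage, 1.24 (1.23 to 1.26) in joint lining and 1.16 (1.12 to 1.20) in tendon. Its widest ratios came from groups that hold little of it: 0.281 (0.262 to 0.300) in osteoblasts, 2.45 (2.33 to 2.59) in marrow stroma and 7.72 (6.07 to 9.94) in mural cells. Few cells carried them. Without the top 5% of cells, the values were 0.463, 0.546 and 1.75, and that of tendon was 0.634, so both tendon and marrow stroma changed side. Thinned cells of marrow stroma gave 0.956, and tendon cells with 4 markers 0.654. In the blood cells Prg4 went from 0.686 to 1.85.

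The study set CD24+ cells against CD24- cells, and the same split was made on the antibody counts, with thresholds of 313 young and 397 old antibody UMIs. Cartilage cells were CD24+ in 35.1% and 28.3% of cases, osteoblasts in 19.5% and 15.3%, joint lining cells in 13.0% and 7.06%, tendon cells in 10.8% and 8.97% and marrow stroma in 4.69% and 2.45%. Cartilage cells made up 61 of 540 CD24+ skeletal cells (11.3%) in the young mouse and 13 of 185 (7.03%) in the old, against 1.66% and 0.906% of CD24- cells. The makeup of the sums therefore differed between CD24 groups along with the members' levels, and its part in the results over all skeletal cells was not tested.

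Over the skeletal groups, 5 of 9 tested members were higher in CD24+ cells and 0 lower, where 9.30% of 15193 genes were called, 4.97% higher and 4.33% lower, in an edgeR fit of 4 sums with 1 residual degree of freedom. Acan was 2.92 against 0.483 in the young mouse and 2.32 against 0.572 in the old, a log2 change of 2.38 (SE 0.14, adjusted p = 0.00131). Chad was 10.4 against 3.46 in the young mouse and 4.12 against 1.41 in the old, a log2 change of 1.63 (SE 0.06, adjusted p = 0.000335). Hapln1 changed by 2.33 (SE 0.19, adjusted p = 0.00290), Cilp2 by 1.04 (SE 0.09, adjusted p = 0.00290) and Comp by 0.71 (SE 0.05, adjusted p = 0.00176). Matn4 (0.82, SE 0.24, adjusted p = 0.0931), Matn3 (1.00, SE 0.52, adjusted p = 0.308), Cilp (0.31, SE 0.30, adjusted p = 0.593) and Prg4 (0.26, SE 0.12, adjusted p = 0.249) were not called. Without the replicate block 2 members were called, and Hapln1 (adjusted p = 0.0738), Chad (0.225) and Cilp2 (0.219) were not.

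Within the cartilage group, 0 of 9 members were called between CD24+ and CD24- cells, and neither was any other of the 6758 genes tested (0.00%). By unadjusted p under 0.05, 177 of these 6758 genes passed in edgeR, fewer than that threshold lets pass on average where no gene differs. DESeq2 also called 0 by adjusted p. Acan in these cells was 17.4 against 11.9 in the young mouse and 19.4 against 12.6 in the old, a ratio of 1.46 (1.35 to 1.59) and 1.54 (1.35 to 1.75) by counting error, with a fitted log2 change of 0.60 (SE 0.26, adjusted p = 0.999). In tendon, where CD24+ cells are fewer, the ratio of CD24+ to CD24- levels was 1.61 (1.35 to 1.91) and 1.62 (1.34 to 1.94) for Acan and 0.495 (0.457 to 0.535) and 0.412 (0.317 to 0.528) for Chad. In osteoblasts it was 1.70 (1.44 to 2.00) and 2.19 (1.82 to 2.63) for Acan and 0.667 (0.603 to 0.736) and 0.286 (0.219 to 0.368) for Chad. Chad was thus lower in CD24+ cells within both tendon and osteoblasts, in both mice, while over the pooled skeletal cells it was higher. In tendon, Comp (0.858 and 0.576) and Cilp2 (0.705 and 0.861, the latter 0.688 to 1.07) were lower too. Both were higher over the pooled cells and within joint lining and osteoblasts, and in cartilage both differed in direction between the mice. Prg4 was at 0.555 and 0.627 in cartilage, 0.181 and 0.858 in joint lining, 1.09 and 0.165 in tendon and 4.42 and 2.24 in osteoblasts. Acan was higher in CD24+ cells within cartilage, tendon and osteoblasts. In joint lining its ratio was 1.995 (1.14 to 3.34) in the young mouse. In the old mouse it was 0.180 (0.00451 to 1.03), on 1 UMI in CD24+ cells. The ratio of Chad was 1.08 and 1.15 in cartilage and 1.19 and 1.46 in joint lining. These ratios within a group carry counting error only and were not tested, apart from the fit for cartilage.

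The wider machinery around these proteins was followed in lists of related genes. Enzymes and transporters of chondroitin sulfate synthesis, which build the chains of aggrecan, were 12 of 22 higher and 1 lower in cartilage cells (of all genes 12.0% were higher and 8.99% lower), with a median log2 change of 0.91, against -0.02 over all genes tested. The largest were Chst3 (4.27, SE 0.46, adjusted p = 4.86e-05), Xylt1 (3.74, SE 0.14, adjusted p = 5.86e-09), Chst11 (3.28, SE 0.20, adjusted p = 5.30e-07) and Csgalnact1 (3.19, SE 0.29, adjusted p = 1.39e-05). Xylt1 starts the chain, Csgalnact1 adds to it early, and the Chst genes encode sulfotransferases. In joint lining 5 of 22 were higher and 0 lower, in tendon 3 higher and 2 lower, and in osteoblasts 7 higher and 4 lower. Of all genes, 7.92% were higher and 3.94% lower in joint lining, 9.02% and 3.27% in tendon, and 14.5% and 11.3% in osteoblasts, and the counts of the lists below stand against the same shares.

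Of 10 transcription factors known from cartilage, 7 were higher in cartilage cells and 0 lower, with a median of 2.70. Foxa3 had 66 and 16 UMIs in cartilage, and Foxa2, its relative in maturing cartilage, had 16 and 4. The other skeletal groups together held 5 and 3 and 14 and 6. Both passed the filter on low counts largely through cartilage, so their calls, 2 of the 7, are a description. Erg changed by 3.78 (SE 0.34, adjusted p = 1.07e-05) and Runx3 by 2.77 (SE 0.22, adjusted p = 4.65e-06). Joint lining had 4 of 10 higher and 1 lower, tendon 1 and 1, and osteoblasts 3 and 1.

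Of proteases and inhibitors of matrix turnover, 2 of 12 were higher and 4 lower in cartilage cells, where 12.0% of all genes were higher and 8.99% lower, with a median of -0.60. The aggrecanases Adamts4 (-4.43, SE 0.63, adjusted p = 0.000405), Adamts5 (-2.06, SE 0.26, adjusted p = 0.000151) and their relative Adamts15 (-3.68, SE 0.89, adjusted p = 0.0118) were lower, and Timp3, an inhibitor of aggrecanases, was higher (1.98, SE 0.19, adjusted p = 2.15e-05). Adamts4 had 2 and 0 UMIs in cartilage cells and Adamts15 2 and 0, so their folds are loosely set. Tendon had 4 of 12 higher and 1 lower, osteoblasts 3 and 1, and joint lining 2 and 1.

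Relatives of the members (the matrilin Matn2 and other link proteins, lecticans and thrombospondins) were 4 of 6 tested higher and 0 lower in cartilage, with a median of 0.92. They were Thbs1 (2.06, SE 0.34, adjusted p = 0.00117), Thbs3 (0.92, SE 0.16, adjusted p = 0.00190), Vcan (0.92, SE 0.26, adjusted p = 0.0273) and Hapln3, whose call is a description since it rested on 19 and 3 UMIs in cartilage (0.117 and 0.0399 per 10000, against 0.00757 and 0.00560 in the other skeletal groups together). The fit set cartilage against the mean of the groups' log levels, which differs from pooled cells: Vcan was at 0.954 and 1.58 per 10000 in cartilage and at 2.49 and 1.94 in all other skeletal cells pooled, and Thbs3 was at 0.985 and 1.29, against 1.08 and 1.15. In joint lining 0 were higher and 1 lower, in tendon 3 and 0, and in osteoblasts 0 and 2. Among 8 tested genes that make, bind or break down hyaluronan, 1 was higher and 0 lower in cartilage: Cemip (3.66, SE 0.18, adjusted p = 7.80e-08), which takes part in breaking hyaluronan down. Joint lining had 3 higher and 0 lower, tendon 2 and 0, and osteoblasts 2 and 3.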

How the data were processed

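Per the labels and the file headers, each matrix held the UMIs of 1 mouse as raw counts for every gene and barcode, as deposited by the authors. Headers name Cell Ranger 6.1.1, and the methods of the study an older version. The build mm10 is named in the submitters' processing notes. No normalization had been applied, and the 3′ chemistry does not separate isoforms.

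Barcodes with under 200 genes (588 and 298) or over 20% mitochondrial UMIs (1306 and 1117) were left out. Scrublet (scanpy 1.11.5) called 2.67% and 1.02% of kept cells as doublets, which were kept. A marker was on where its UMIs per 10000 exceeded the mean of both libraries, and a cell took the group with most markers on, at least 3 of 8, ties being left unassigned. A cell was CD24+ above the Otsu threshold of log(1 + antibody count) in its library. UMIs were summed per mouse and group and tested with edgeR 4.0.16 in R 4.3.3 (TMM, filterByExpr, quasi-likelihood F test, two-sided, Benjamini-Hochberg over all genes tested), after the script was tested on simulated data. The mouse was the replicate block, since sums of a mouse come from the same animal. Intervals are exact, Poisson for levels, Clopper-Pearson for shares and conditional binomial for ratios. The median kept cell had 6385 and 9711 UMIs.

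The named genes were all members, up to 4 called genes of each list by size of change in cartilage cells, and the 3 genes nearest to Acan, Comp and Prg4. The members and lists were chosen with earlier results of these data known. Alternatives were no replicate block, DESeq2 1.42.0, no filter on low counts, at least 4 markers, cells thinned to 2000 UMIs and grouped again, no called doublets, at most 10% mitochondrial UMIs, the top 10% of antibody counts as CD24+, each mouse alone, and, added after seeing the data, the top 5% of cells of a member left out. Sequences are RefSeq's.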

Additional observations from a re-analysis of the deposited data

Results flagged for a closer look

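Cells left unassigned, 1773 young and 966 old ones, entered no comparison. Of these, 197 and 137 had at least 3 markers on but tied between lists. In the unassigned cells, 8 of the members, Matn1 and Matn3 aside, were above the level of the blood group in both mice. Matn1 was at 0 UMIs. Per 10000 UMIs, the structural proteins were at 21.5 and 20.5 for Comp, 4.21 and 1.52 for Chad, 0.766 and 0.866 for Acan, 0.359 and 0.232 for Hapln1 and 0.377 and 0.278 for Matn4. Cilp was at 2.76 and 2.85, Cilp2 at 0.838 and 0.286, and Prg4 at 17.6 and 15.1. Chad and Cilp2 were lower in the old mouse here too, by value and without a test.

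Between CD24+ and CD24- skeletal cells, 3 members had log2 differences of opposite sign in the mice. In the young mouse Matn3 was at 1.49, Cilp at 0.93 and Prg4 at 0.48, and in the old mouse they were at -1.24, -0.49 and -0.082. The differences between the mice were not tested.

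The old over young ratio of Prg4 was 0.281 in osteoblasts, 2.45 in marrow stroma and 7.72 in mural cells, in opposite directions. Without the top 5% of cells by Prg4 it was 0.463, 0.546 and 1.75. The difference between the groups was not tested, and there was 1 mouse of each age.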

How the results depend on the processing

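Of the single values recomputed under the alternatives, 619 kept their direction and their side of the threshold or moved by less than their error, 74 moved further, 12 lost and 12 gained a call, and 22 changed direction. An old over young ratio entered the 22 only where the main ratio was past 2-fold. Other such ratios that changed side of 1 were placed in the 619 or the 74. Limits: 1 mouse per age, 46 old cartilage cells, and marker groups whose makeup moves with the rule; the cause of the changes was not tested. Thinning to 2000 UMIs, which leaves fewer genes tested, lowered the genes called from 2887 to 955 in cartilage, 1628 to 384 in joint lining, 1687 to 905 in tendon, 3551 to 1311 in osteoblasts, 1931 to 556 in cartilage against joint lining and 1413 to 568 for CD24. For CD24 over skeletal cells the count was 2634 without the filter and 145 with no replicate block. For CD24 in cartilage, 20 genes were called without the filter and 12 with the top 10% of antibody counts. Without the replicate block, 3 members in place of 5 were called in osteoblasts and 2 in place of 5 for CD24, and otherwise the members called stayed within 1.5 times. Thinned, the share of cells was 0.567% for old cartilage, 0.570% and 0.548% for joint lining, 4.82% and 3.62% for tendon and 5.39% for young osteoblasts. With 4 markers it was 0.825% and 0.803% for joint lining, 3.27% and 3.03% for tendon and 3.86% and 4.98% for osteoblasts.

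Among the tested or called values, directions changed as follows, in log2. In joint lining, Hapln1 was at -0.57 thinned, and with 4 markers Matn3 was at 1.46 and Chad at -1.22. In tendon, Prg4 was at 0.34 thinned. In osteoblasts, Matn3 was at 0.16 thinned, and Comp was at 0.72 thinned, 0.035 with 4 markers, 0.056 without doublets, 0.29 without the old mouse and -0.55 without the young mouse. For cartilage against joint lining, Matn4 was at -0.33 with 4 markers and -0.17 thinned. For CD24 over skeletal cells, leaving out the young or the old mouse gave -0.84 to 1.38 for Matn3, -0.49 to 0.92 for Cilp and -0.082 to 0.48 for Prg4. For CD24 in cartilage cells, Hapln1 was at -0.15 thinned, Comp at -0.10 thinned, -0.018 with no replicate block and -0.29 to 0.46 with either mouse left out, Cilp at 0.024 thinned and -1.25 to 0.18 with either mouse left out, and Cilp2 at -0.20 to 0.36. The old over young ratio of Chad in joint lining was 0.32 on the log2 scale when thinned. Of 54 old over young ratios, 20 changed side of 1 in at least 1 alternative, and in 9 of 27 such cases the counting interval lay beyond 1. Thinned, these were Acan (1.30) and Cilp (1.27) in cartilage and Comp (0.883) in tendon. With 4 markers they were Comp (0.932), Cilp (0.756) and Prg4 (0.654) in tendon and Comp (0.434) in mural cells. Without doublets they were Comp (1.39) and Cilp (2.58) in marrow stroma. In cartilage cells the calls of the 9 tested members held in every alternative with a test, that of Matn3 again being a description.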
